A study of Homo sapiens with 4 samples.

Results

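The dual-specificity MAP kinase phosphatases were followed through 10 genes, DUSP1, DUSP2, DUSP4, DUSP5, DUSP6, DUSP7, DUSP8, DUSP10, DUSP14 and DUSP16. They were chosen by name, with earlier results of these data known. Every probe set that the array's annotation lists for exactly 1 of them was used, which gave 22 of the 54675 probe sets and 10 of 19775 genes. RNA came from HCT116, an established cell line of human colon cancer. Cells of both groups were first deprived of serum for 24 h. The hypoxia group then spent 72 h at 1% oxygen and the normoxia group 72 h at 21%. Each group had 2 arrays, labelled exp A and exp B. The labels do not say whether these came from separate cultures, so p-values measure only how far these samples spread, and that spread may be technical.

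MAP kinases (ERK, JNK and p38) are switched on when both a threonine and a tyrosine of their activation loop are phosphorylated, and these phosphatases switch them off by removing both phosphates. Many of their genes are themselves induced by the kinases they inactivate, so they act as negative feedback. DUSP1, DUSP2, DUSP4 and DUSP5 are inducible nuclear enzymes, DUSP6 and DUSP7 are cytoplasmic enzymes that prefer ERK, and DUSP8, DUSP10 and DUSP16 prefer JNK and p38. DUSP14 is a small atypical enzyme without the kinase-binding domain of the others.

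In hypoxia 7 of the 10 genes rose by their brightest probe set, against 14.5% of all 12636 genes tested (36.3% in either direction), and none fell (21.7% of all). By the ratio of the group means of 2 arrays each, the rises were 13.2-fold for DUSP1, 8.13-fold for DUSP16, 5.33-fold for DUSP8 and 4.38-fold for DUSP5, and 1.98-, 1.98- and 1.95-fold for DUSP4, DUSP6 and DUSP7. DUSP2, DUSP10 and DUSP14 were not called. Of the 22 probe sets, 14 rose, against 13.7% of the 27304 probe sets tested, 0 fell (17.1% of all tested, so that 30.8% changed in either direction) and 8 were not called. All of these directions are relative to the other genes of an array. When the arrays were scaled to their hybridization controls instead, 14 of the 22 differences turned negative, while the 8 that stayed positive were those of DUSP16, DUSP5, 2 probe sets of DUSP1 and 1 of DUSP8.

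Values are MAS5 signals, a linear intensity per probe set. Differences are hypoxia minus normoxia on the scale log2(signal + 23.7), which understates the change of weak probe sets, and a call is a Benjamini-Hochberg adjusted p under 0.05 in limma over all 27304 probe sets whose mean signal was at least 97.4. All 22 member probe sets were above that limit. The number of arrays limits the precision.

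The labels were checked on other genes. All 7 tested genes of a list of 8 known hypoxia genes rose, among them NDRG1 (log2 difference 4.02). The epithelial markers KRT8, KRT18, EPCAM and CDH1 had mean signals of 4921 to 28652 per group, far above any Bacillus control. Those of the intestinal markers VIL1 and CDX2 lay between 64.9 and 214. EPCAM and CDH1 were called higher in hypoxia, and both were negative when scaled to the hybridization controls. The other 4 of these 6 markers were not called. Of 6 markers of leukocytes, endothelium and fibroblasts, 1 was called, COL1A1, higher in hypoxia. The summed signal of these 6 was 699 and 1108 on the normoxia arrays and 2200.2 and 2632 on the hypoxia arrays, and COL1A1 made up most of it. PTPRC, CD3E, CDH5 and COL3A1 lay under the signal limit, with none listed at 0, and the part of such cells in the results below was not tested. In bulk RNA, fewer cells of a type and less RNA per cell cannot be told apart. Bacillus control probe sets, which match no human gene, reached 45.7 and 121 on normoxia A and B, and 305 and 226 on hypoxia A and B.

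Promoter sequence is shown for 3 of the genes that rose most, because DUSP1 and DUSP8 share a cyclic AMP response element (CRE, the palindrome TGACGTCA) that DUSP16 lacks in the same window. RefSeq promoter entries of 8 of the 10 members were searched. DUSP4 and DUSP5 were not searched, so their promoters are not described here. Each line holds the 250 bases before the start site in GRCh38.p14, 5′ to 3′ on the gene's own strand, and capitals mark every CRE half-site TGACG on either strand. DUSP1 lies at chr5:172771196-172771445, DUSP8 at chr11:1572272-1572521 and DUSP16 at chr12:12562864-12563113, all on the minus strand.
DUSP1: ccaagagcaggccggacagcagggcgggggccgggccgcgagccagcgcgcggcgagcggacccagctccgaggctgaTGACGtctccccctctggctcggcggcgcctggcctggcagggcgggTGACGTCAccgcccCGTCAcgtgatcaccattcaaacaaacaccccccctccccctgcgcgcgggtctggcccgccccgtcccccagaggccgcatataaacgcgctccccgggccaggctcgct
DUSP8: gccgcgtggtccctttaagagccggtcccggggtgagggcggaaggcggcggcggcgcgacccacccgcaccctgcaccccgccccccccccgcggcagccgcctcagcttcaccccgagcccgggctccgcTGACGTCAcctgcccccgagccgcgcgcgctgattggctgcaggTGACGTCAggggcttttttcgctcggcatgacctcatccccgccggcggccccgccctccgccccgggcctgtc
DUSP16: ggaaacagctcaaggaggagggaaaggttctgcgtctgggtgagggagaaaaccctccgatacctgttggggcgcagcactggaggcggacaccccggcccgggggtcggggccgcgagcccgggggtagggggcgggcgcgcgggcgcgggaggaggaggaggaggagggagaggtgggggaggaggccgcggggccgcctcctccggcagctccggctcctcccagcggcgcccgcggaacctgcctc
The full palindrome lay 125 to 118 bases before the start of DUSP1, and 118 to 111 and 74 to 67 bases before that of DUSP8. Both genes were the only ones with a match among the 8 members searched, and whether DUSP4 or DUSP5 holds it was not tested. Of all 35116 entries, 1.65% held it in the same window. The half-site TGACG, which lies inside the palindrome, was found in the same 2 genes and in 21.2% of all entries. DUSP1 had a TATAAA at 30 to 25 bases before the start, a word found in 10.7% of entries.

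Other words were searched on both strands. The HIF core ACGTG matched in DUSP1 and DUSP2 (18.5% of entries) and its variant GCGTG in DUSP6, DUSP8, DUSP10 and DUSP14 (32.2% of entries). In DUSP1 and in DUSP2 the ACGTG was read on both strands at the same place, as the palindrome CACGTG, and in DUSP1 it overlaps the end of a CRE half-site. None of the 8 members searched had the AP-1 word TGANTCA (6.57% of entries), the serum response CArG box (1.16%) or the ETS word CCGGAA (14.5%). A match describes letters, not binding, and says nothing about other stretches of these genes.

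**Figure D1:**
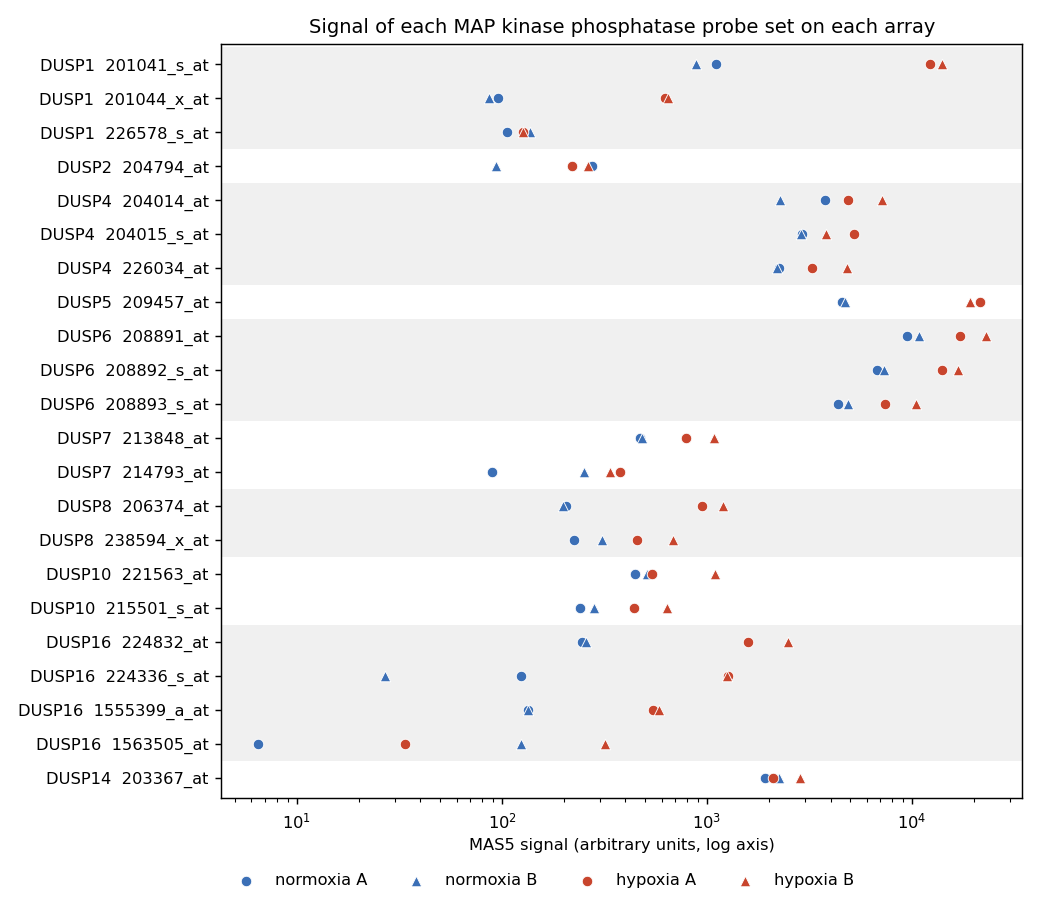
MAS5 signal (log axis) of the 22 probe sets on the 4 arrays, blue for normoxia and red for hypoxia, circles for exp A and triangles for exp B. Both hypoxia arrays lie above both normoxia arrays in 18 probe sets, and the groups overlap for DUSP2, DUSP14, DUSP1 226578_s_at and DUSP16 1563505_at.

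Among the inducible nuclear enzymes, DUSP1 (MKP-1), which acts on p38, JNK and ERK, had the largest rise of any member by its brightest probe set. Its signal there (201041_s_at) was 1102 and 884 in normoxia A and B, and 12270 and 13925 in hypoxia A and B. The groups stand far apart, by much more than the arrays of either group differ. The log2 difference was 3.70 ± 0.18 (SE, n = 2 arrays per group; 95% interval 3.28 to 4.11; adjusted p = 1.71e-05), which ranked 42 among the rises of the 27304 probe sets tested.

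The other DUSP1 probe sets did not all follow. Probe set 201044_x_at, whose suffix marks probes that can also bind other sequences, gave 95.2 and 86.0 in normoxia against 626 and 647 in hypoxia. Its groups did not overlap either, and it rose by 2.53 ± 0.40 (SE, n = 2; adjusted p = 0.00172) on the log2 scale. Its normoxia mean of 90.6 lay under the highest Bacillus control there, so the size of that rise is not well measured. Probe set 226578_s_at stayed at 106 and 137 in normoxia and at 127 on both hypoxia arrays, with overlapping groups and a log2 difference of 0.06 (95% interval -1.34 to 1.47; adjusted p = 0.948), which was -0.33 after quantile normalization and -0.089 without normoxia A. Those signals are at the level of the Bacillus controls. Scaled to the hybridization controls, the 3 differences were 2.25 (adjusted p = 0.00361), 1.24 (adjusted p = 0.153, no longer called) and -1.18.

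DUSP5, a nuclear phosphatase that acts on ERK alone, was measured by 1 probe set. Its signal was 4568 and 4689.6 in normoxia and 21465 and 19125 in hypoxia, a gap many times the difference between arrays of 1 group. It rose by 2.12 ± 0.17 on the log2 scale (SE, n = 2; 95% interval 1.74 to 2.50; adjusted p = 7.94e-05). Without 1 array the difference stayed between 2.04 and 2.21. Scaled to the hybridization controls it was 0.67 and not called (adjusted p = 0.330).

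DUSP4 (MKP-2), a nuclear relative of DUSP1, rose in all 3 of its probe sets, relative to the other genes of an array. The brightest, 204014_at, gave 3779.7 and 2271 in normoxia and 4853 and 7151 in hypoxia. The gap between the groups was smaller there than the difference between the normoxia arrays. Probe set 226034_at gave 2247 and 2191 against 3266 and 4795, and 204015_s_at gave 2909.9 and 2859.8 against 5196 and 3809.

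Their log2 differences were 1.00 ± 0.27 (SE, n = 2; adjusted p = 0.0207), 0.83 ± 0.21 (adjusted p = 0.0165) and 0.62 ± 0.19 (adjusted p = 0.0385) in the same order, or 1.98-, 1.82- and 1.56-fold by the group means. Hypoxia B was the higher hypoxia array in the first 2 and hypoxia A in the third. Without normoxia A or normoxia B, the log2 differences of 226034_at and 204015_s_at barely moved, while their SEs rose to 0.32 and 0.30. Such a fit takes the spread of normoxia from the hypoxia arrays. Each call of DUSP4 was lost in some fit without 1 array. The first ended without normoxia B, at 0.64 (adjusted p = 0.140). The second ended without normoxia A, at 0.85 (adjusted p = 0.0758), and without normoxia B, at 0.81 (adjusted p = 0.0892). The third ended without normoxia A (0.63, adjusted p = 0.173), without normoxia B (0.61, adjusted p = 0.187) and without hypoxia A (0.40, adjusted p = 0.0506). All 3 were lost in a fit without an intensity trend (adjusted p = 0.123 to 0.176), the third also with no signal filter (adjusted p = 0.0520), and all were negative when scaled to the hybridization controls (-0.83 to -0.45).

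DUSP2 (PAC-1), best known as a nuclear phosphatase of immune cells, was not called. Its signal was 276 and 93.8 in normoxia and 220.3 and 262 in hypoxia. The groups overlap, and normoxia A was the highest of the 4 values. The log2 difference was 0.49 (95% interval -0.77 to 1.76; adjusted p = 0.534), negative between the A arrays (-0.30) and positive between the B arrays (1.29). Its mean in hypoxia, 241, lay under the highest Bacillus control there.

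Of the cytoplasmic ERK phosphatases, DUSP6 (MKP-3), a classic target and inhibitor of ERK, rose in all 3 of its probe sets, relative to the other genes of an array. Probe set 208891_at gave 9488 and 10834.5 in normoxia and 17209 and 22936 in hypoxia. Probe set 208892_s_at gave 6715 and 7319.6 against 13935 and 16732, and 208893_s_at gave 4366 and 4859 against 7360 and 10407. In each, both hypoxia values lay above both normoxia values, and the B array was the higher in both groups.

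The log2 differences of DUSP6 were 0.97 ± 0.20 (SE, n = 2; adjusted p = 0.00606), 1.12 ± 0.18 (adjusted p = 0.00172) and 0.92 ± 0.20 (adjusted p = 0.00823), close to one another and to a doubling. They stayed called without any 1 array, with values from 0.67 to 1.25. They lost the call in a fit without an intensity trend (adjusted p = 0.0553 to 0.0977), and were negative when scaled to the hybridization controls (-0.53 to -0.33).

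DUSP7, the close relative of DUSP6, rose in 1 of its 2 probe sets. The brightest, 213848_at, gave 473 and 483 in normoxia and 785 and 1082 in hypoxia, without overlap. It rose by 0.91 ± 0.27 on the log2 scale (SE, n = 2; adjusted p = 0.0288), although it was -0.50 when scaled to the hybridization controls. It was not called without normoxia A (0.90, adjusted p = 0.210), without normoxia B (0.93, adjusted p = 0.191) or without an intensity trend (adjusted p = 0.0908). Probe set 214793_at gave 89.4 and 251 against 376 and 335, also without overlap. Its normoxia arrays lay further apart than the gap between the groups, and its log2 difference of 1.10 (95% interval -0.06 to 2.26) was not called (adjusted p = 0.134).

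Among the phosphatases that prefer JNK and p38, DUSP16 (MKP-7) rose most. Its brightest probe set, 224832_at, gave 244 and 256 in normoxia and 1590.0 and 2479 in hypoxia, and rose by 2.88 ± 0.28 (SE, n = 2; 95% interval 2.24 to 3.51; adjusted p = 1.74e-04). Probe set 1555399_a_at gave 134 and 133 against 548 and 585, and rose by 1.91 ± 0.38 (SE, n = 2; adjusted p = 0.00491). Both separate the groups cleanly, by more than the arrays of either group differ.

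The largest fitted difference of any member probe set was that of DUSP16 224336_s_at, which gave 124 and 27.0 in normoxia and 1260.1 and 1245 in hypoxia. It rose by 3.88 ± 0.51 (SE, n = 2; 95% interval 2.74 to 5.03; adjusted p = 6.83e-04). The hypoxia arrays nearly coincide and the normoxia arrays lie far apart, with a normoxia mean of 75.7 that was under the highest Bacillus control, so the size of this rise is not well measured either. Without normoxia A the difference was 4.65 and without normoxia B it was 3.11.

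The remaining DUSP16 probe set, 1563505_at, differed more between A and B than between oxygen levels. It gave 6.45 and 124 in normoxia and 33.5 and 319 in hypoxia, so the groups overlap, while within each letter the hypoxia value was the higher. Its log2 difference was 1.07 (95% interval -1.58 to 3.73; adjusted p = 0.520), and it was -0.07 without normoxia A and -0.22 without hypoxia B. Scaled to the hybridization controls, the 4 DUSP16 differences stayed positive, from 0.29 to 2.61, and that of 224336_s_at alone stayed called (adjusted p = 0.00139).

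DUSP8, which also prefers JNK and p38, had 1 probe set that rose and 1 that was not called. Probe set 206374_at gave 204 and 198 in normoxia and 943 and 1199 in hypoxia, and rose by 2.27 ± 0.30 (SE, n = 2; 95% interval 1.61 to 2.94; adjusted p = 6.73e-04). Scaled to the hybridization controls it was 0.90 and not called (adjusted p = 0.296). Probe set 238594_x_at, again with the suffix for possible binding to other sequences, gave 224 and 307 against 454 and 679. Its groups do not overlap, and its log2 difference was 1.02 (95% interval 0.22 to 1.82; adjusted p = 0.0574). It passed when scaled to the 75th percentile (adjusted p = 0.0365). Without hypoxia A it was 1.30, without hypoxia B it was 0.74, and with the hybridization controls it was -0.35.

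DUSP10 (MKP-5) was higher in hypoxia in both probe sets without passing the test. Probe set 221563_at gave 447 and 509.9 in normoxia and 538 and 1090.1 in hypoxia, and 215501_s_at gave 239.9 and 279.9 against 441 and 637. Neither pair of groups overlaps, and hypoxia B was the higher hypoxia array in both. The log2 differences were 0.66 (95% interval -0.12 to 1.44; adjusted p = 0.179) and 0.97 (95% interval 0.19 to 1.75; adjusted p = 0.0616). Their size depended on which hypoxia array was kept, and a fit with 1 of them takes its spread from the normoxia arrays alone. Without hypoxia A the differences were 1.15 and 1.22, and without hypoxia B they were 0.16 and 0.72. With the hybridization controls as the scale they were -0.75 and -0.40. The second passed when scaled to the 75th percentile (adjusted p = 0.0386).

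DUSP14, the atypical member, moved least among the brightest probe sets. Its signal was 1919 and 2244 in normoxia and 2092.5 and 2833 in hypoxia, so the groups overlap. The log2 difference was 0.23 (95% interval -0.24 to 0.70; adjusted p = 0.435), an interval that holds neither a doubling nor a halving. Without hypoxia A it was 0.44, without hypoxia B it was 0.012, and scaled to the hybridization controls it was -1.22.

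**Figure D2:**
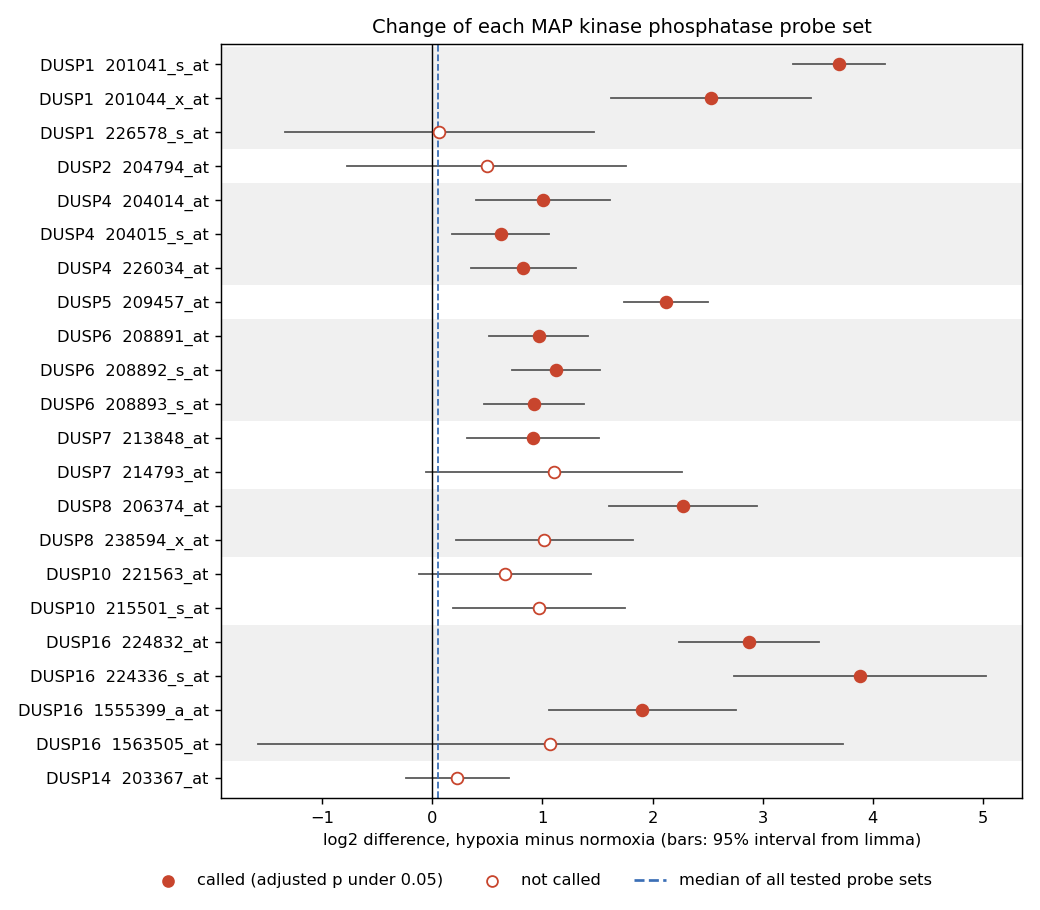
Log2 difference of each probe set, hypoxia minus normoxia, with the 95% interval from limma; filled circles are called, open circles are not, and the dashed line is the median of all tested probe sets (0.05). All 22 points lie at or above 0.06 as deposited, and the intervals of DUSP1 201041_s_at, DUSP16 224832_at, DUSP8 206374_at and DUSP5 209457_at begin at 1.61 or higher; scaled to the hybridization controls, 14 points are negative.

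Across the family, the brightest probe sets ordered the genes as DUSP1 (log2 difference 3.70), DUSP16 (2.88), DUSP8 (2.27), DUSP5 (2.12), DUSP4 (1.00), DUSP6 (0.97), DUSP7 (0.91), DUSP10 (0.66), DUSP2 (0.49) and DUSP14 (0.23). The intervals of neighbours in this order overlap in every case but 1, since DUSP5 began at 1.74 and DUSP4 ended at 1.61. Differences between genes were not tested. Among probe sets, 6 of 8 of the nuclear enzymes and 4 of 5 of the ERK phosphatases were called higher. The counts were 4 of 8 for the JNK and p38 phosphatases and 0 of 1 for DUSP14, against 13.7% of all tested probe sets. They hold several probe sets of the same gene, such as DUSP4 and DUSP6, so they do not compare the classes gene by gene.

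The 2 hypoxia arrays were not alike for these genes. Hypoxia B had the higher signal in 17 of the 22 probe sets, and the difference between the B arrays exceeded that between the A arrays in 18. Over all 27304 probe sets tested hypoxia B was the higher in 13449, and the B difference exceeded the A difference in 13105. Several of the 22 probe sets measure the same gene, so they are not separate counts. In 18 of the 22 probe sets both hypoxia arrays lay above both normoxia arrays, a pattern seen in 35.4% of all tested probe sets, and by the brightest probe set in 8 of 10 genes (34.1% of all genes). Without hypoxia B 14 of the 22 were called higher (17.2% of all tested) and without hypoxia A 17 (18.3%). Without normoxia A 11 were called (8.35%) and without normoxia B 10 (8.3%). The count was 7 in a fit without an intensity trend (6.24% of all tested), 13 with no signal filter (5.93%), 16 scaled to the 75th percentile (16.8%), 10 at an adjusted p under 0.01 (7.5%), and 7 of 10 when the brightest probe sets alone were fitted (15.3%).

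**Figure D3:**
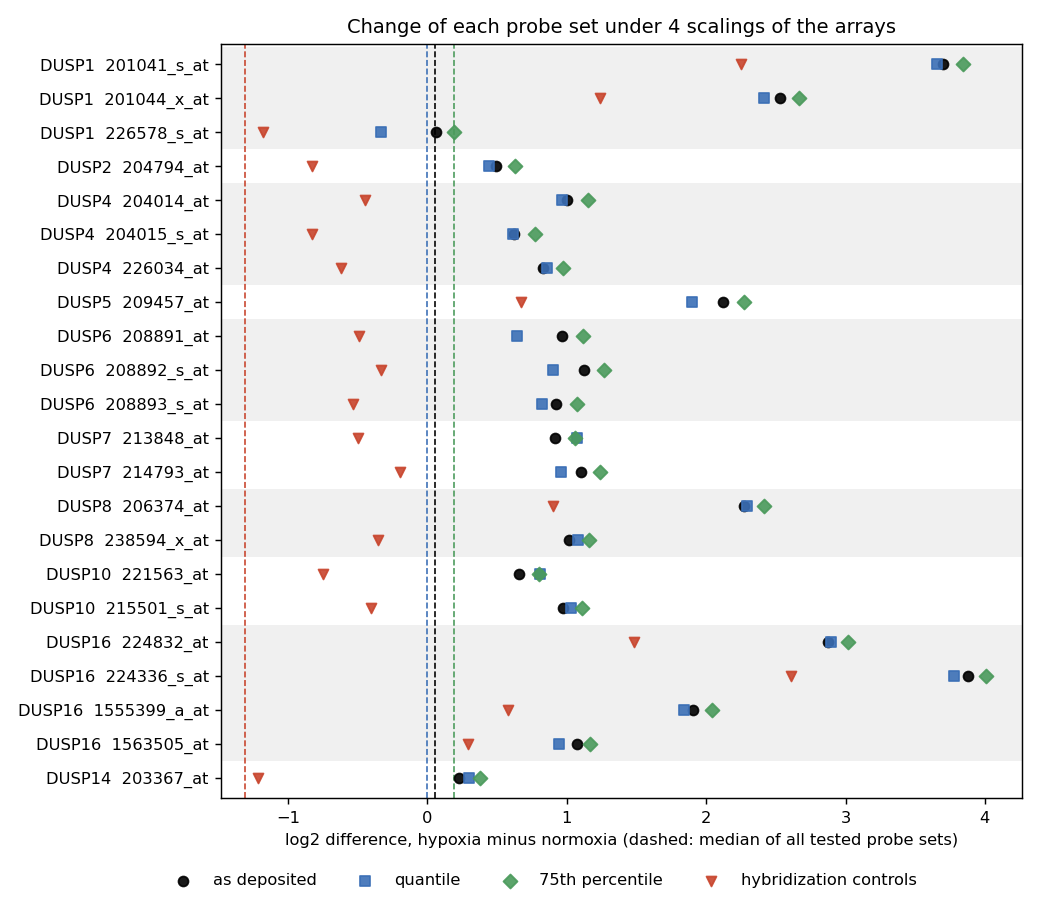
Log2 difference of each probe set, hypoxia minus normoxia, under 4 scalings of the arrays; dashed lines give the median of all tested probe sets under each. Scaling to the hybridization controls shifts that median to -1.31 and turns 14 of the 22 negative, while the median of the members stays 0.93 above it.

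The choice of scaling moved all probe sets of an array. Scaled to the hybridization controls, which are bacterial and phage transcripts added before hybridization, the median of all tested probe sets went from 0.05 to -1.31, and 2 of the 22 members were called higher, against 0.403% of all tested. These 2 were DUSP1 201041_s_at and DUSP16 224336_s_at. Of all calls, 44.5% were higher in hypoxia as deposited and 1.07% with the hybridization controls. The geometric mean of those controls was 2444 and 4595 on the normoxia arrays and 9869 and 8594 on the hypoxia arrays, so they also differed within normoxia. The median member lay 0.96 above the median of all tested probe sets as deposited, 0.96 above it after quantile normalization and 0.93 above it with the hybridization controls.

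DUSP9 (MKP-4), which completes the cytoplasmic ERK group but was not a member, gave 190.5 and 178 in normoxia and 470 and 304 in hypoxia. Both hypoxia values were higher, with a log2 difference of 0.95 that was not called (adjusted p = 0.110). It was 1.25 without hypoxia B, 0.66 without hypoxia A and -0.39 with the hybridization controls. In its list of 10 other phosphatases of MAP kinases, 3 of 9 tested genes rose and 0 fell. These were the PP2C family genes PPM1A (1.23) and PPM1B (0.88) and the PP2A catalytic gene PPP2CB (0.87), all negative when scaled to the hybridization controls. PPM1A had other probe sets with values down to -1.34, and PPM1B was not called with normoxia B left out (adjusted p = 0.232).

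Of 14 other dual-specificity phosphatases 2 rose and 3 fell, 14.3% and 21.4% of them, close to the 14.5% and 21.7% of all tested genes. DUSP23, a small atypical phosphatase, fell from 1224 and 1218 in normoxia to 77.3 and 62.8 in hypoxia (log2 difference -3.74 ± 0.35 SE, n = 2; adjusted p = 1.53e-04). Its hypoxia signals lay under the highest Bacillus controls of those arrays, so the size of that fall is not well measured. CDKN3, which dephosphorylates cyclin-dependent kinases, fell by 2.18, DUSP11 fell by 0.59, and CDC14B rose by 1.31. DUSP3, which acts on ERK and JNK, rose by 0.89 in its brightest probe set and was -0.27 and 1.26 in others. Without normoxia A or normoxia B, DUSP3 (adjusted p = 0.147 and 0.163) and DUSP11 (adjusted p = 0.338 and 0.230) lost their calls, and CDC14B and DUSP3 were negative when scaled to the hybridization controls.

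**Figure D4:**
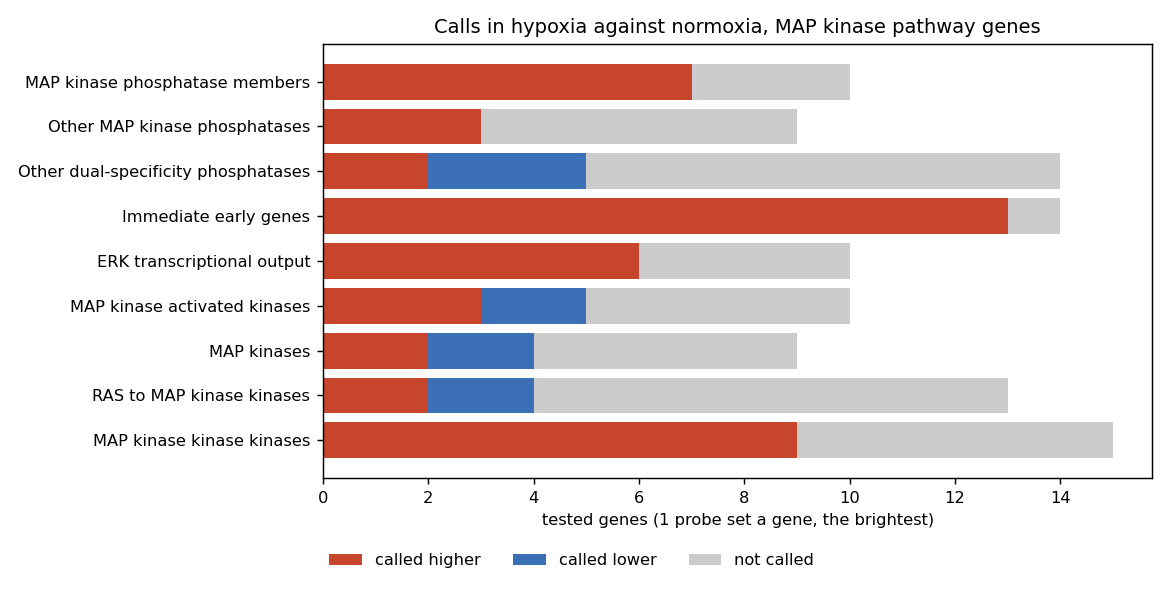
Tested genes of each list, 1 probe set a gene, split into called higher (red), called lower (blue) and not called (grey) in hypoxia against normoxia. The phosphatase members were higher in 7 of 10, the immediate early genes in 13 of 14 and the MAP kinase kinase kinases in 9 of 15, against 14.5% of all tested genes.

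The immediate early genes, which ERK and other MAP kinases induce and which share that regulation with several members, rose in 13 of 14 tested, with a median of 1.49 against -0.03 over all tested genes. Their named members were FOS (2.50), ATF3 (2.32), FOSB (2.13) and ZFP36 (1.58), which stayed positive when scaled to the hybridization controls (0.13 to 1.08). Of the 13 that rose, 5 were negative under that scaling. Genes of ERK's transcriptional output rose in 6 of 10 with 0 lower and a median of 0.71. Here the ephrin receptor gene EPHA2 rose by 1.72, and the feedback inhibitors SPRY4 and SPRY2 rose by 1.26 and 1.20, as did PHLDA1 by 0.76; scaled to the hybridization controls EPHA2 stayed positive (0.27) and the other 5 of the 6 were negative. SPRY2 was not called with normoxia B left out (adjusted p = 0.126), nor PHLDA1 with hypoxia A left out (adjusted p = 0.0677).

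The kinases that the members act on showed no such one-sided pattern. Of 9 tested MAP kinase genes, 2 rose and 2 fell: the p38 genes MAPK12 and MAPK13 fell by 2.20 and 0.97, the atypical MAPK6 rose by 1.13 and the JNK gene MAPK9 rose by 0.72. MAPK12, whose hypoxia mean of 127 was under the highest Bacillus control, was not called with normoxia A left out (adjusted p = 0.179). MAPK13 (adjusted p = 0.178 and 0.217) and MAPK9 (adjusted p = 0.159 and 0.144) were not called with normoxia A or normoxia B left out. MAPK6 and MAPK9 were negative when scaled to the hybridization controls. From RAS to the MAP kinase kinases, 2 of 13 rose, MAP2K4 (1.36), a kinase of JNK and p38, and MAP2K1 (0.78), a kinase of ERK, and 2 fell, the adaptor gene SHC1 (-1.48) and HRAS (-1.05). With normoxia A or normoxia B left out, MAP2K1 had adjusted p = 0.0535 and 0.0678, and HRAS had adjusted p = 0.148 in the first case. Both MAP2K genes were negative when scaled to the hybridization controls.

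One level up, 9 of 15 MAP kinase kinase kinases rose and 0 fell, with a median of 0.87. MAP3K8 (TPL2), which feeds ERK, rose from 54.5 and 38.1 in normoxia to 939 and 1049 in hypoxia (log2 difference 3.87 ± 0.42 SE, n = 2; adjusted p = 2.78e-04), from normoxia signals whose mean was under the highest Bacillus control, so that its size is not well measured. MAP3K5 rose by 1.53, MAP3K4 by 1.36 and MAP3K2 by 1.31, and 7 of the 9, MAP3K4 and MAP3K2 among them, were negative when scaled to the hybridization controls. MAP3K5 was not called with normoxia B left out (0.98, adjusted p = 0.0629). Of 10 kinases activated by MAP kinases, 3 rose and 2 fell, with MKNK2 up by 1.83, MAPKAPK2 and RPS6KA3 each by 1.44, and MAPKAPK3 and MAPKAPK5 at -2.29 and -1.14. Scaled to the hybridization controls MAPKAPK2 was 0.01 and RPS6KA3 was -0.01, and MAPKAPK5 had adjusted p = 0.151 and 0.0921 with normoxia A or normoxia B left out.

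The pattern most like that of DUSP16 224336_s_at over the 4 arrays, among 12626 genes of other families, was that of EGLN3, an oxygen-sensing prolyl hydroxylase gene (Euclidean distance 0.61 between centred log2 values), followed by IL11 (0.63) and BEAN1 (0.68). Their log2 differences were 3.76, 3.83 and 3.28, and with 4 arrays the likeness is a description only.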

How the data were processed

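RNA of HCT116 cells was measured on 4 arrays, 2 at 1% and 2 at 21% oxygen, grouped by the labels. The authors deposited a linear intensity for each probe set. The submitters' processing notes name MAS5, with a release not given in the sources used here. After trimming 2% of values from each end, every array had a mean of 500.1, so directions are relative to the other genes. Genes came from the platform annotation: of 54675 probe sets, 41091 name 1 gene, 1801 several and 11721 none.

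Probe sets with a mean signal of at least 97.4 (the median of all means) were compared on log2(signal + 23.7), the added value being the 25th percentile of all values, with limma 3.58.1 in R 4.3.3 (lmFit, eBayes with an intensity trend, two-sided) and Benjamini-Hochberg adjustment over all 27304. Counts by gene use these calls for each gene's brightest probe set. The fit was run on simulated data whose variances were drawn from the fit itself and were equal in both groups. Such data cannot test the effect of the unequal spread of these groups. Figures used Python 3.11.15 and matplotlib 3.10.9. Alternatives were other scalings, filters, pseudocounts and variance models, a replicate block and leaving out each array. Arrays with the same letter did not deviate together (r = 0.06 across probe sets), so the letters were not taken as pairs.

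The members and gene lists were chosen with earlier results of these data known. Besides the members and DUSP9, up to 4 called genes with the largest change are named from each list. MAPKAPK5, DUSP11 and the cell type markers beyond this rule are named outside it.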

Additional observations from a re-analysis of the deposited data

How the results depend on the processing

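Over all 27304 probe sets, 8406 were called, 3824 without an intensity trend, 4725 at an adjusted p under 0.01, 4803 with the brightest probe set of each gene only (12636 tested), 10115 with a replicate block, and 4322 to 11785 without 1 array. The member probe sets called higher, 14 of 22, became 2 with the hybridization controls, 7 of 10 with the brightest only, 7 without an intensity trend, 16 with a replicate block, which added DUSP8 238594_x_at (adjusted p = 0.0305) and DUSP10 215501_s_at (adjusted p = 0.0449), and 10 to 17 without 1 array. Member genes called, 7 of 10, became 1 with the hybridization controls, 4 without an intensity trend and 5 to 9 without 1 array. No member was called lower in any of the alternatives run. DUSP1 201041_s_at and DUSP16 224336_s_at were called in each alternative that tested them.

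Scaled to the hybridization controls, the log2 differences that turned negative were those of DUSP1 226578_s_at (-1.18), DUSP2 (-0.83), DUSP4 (-0.45, -0.83 and -0.62), DUSP6 (-0.49, -0.33 and -0.53), DUSP7 (-0.50 and -0.20), DUSP8 238594_x_at (-0.35), DUSP10 (-0.75 and -0.40) and DUSP14 (-1.22); that scaling sets all values against a median of -1.31. DUSP1 226578_s_at was also -0.33 under quantile normalization. Without 1 array it ranged from -0.089 (normoxia A left out) to 0.22, DUSP2 from -0.18 (normoxia B) to 1.17, and DUSP16 1563505_at from -0.22 (hypoxia B) to 2.36, with -0.07 without normoxia A. The cause was not tested. Of 332 member values under alternatives, 280 kept direction and call, 32 lost the call, 8 gained it and 19 changed sign, of which 7 are among the 32. On the log2 scale the SD had a median of 0.17 in normoxia and 0.30 in hypoxia, and a fit without 1 array takes its spread for that group from the other. Means of 3 member probe sets in normoxia and 3 in hypoxia lay under the highest Bacillus control, where signal limits what can be seen.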
